A study of Mus musculus with 5 samples.

Results

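Eicosanoids are short-lived lipid signals made from arachidonic acid. The cyclooxygenase COX-2, encoded by Ptgs2, starts the prostanoid branch, and the hematopoietic prostaglandin D synthase Hpgds makes prostaglandin D2, which acts on type 2 innate lymphoid cells (ILC2s) through the receptor CRTH2 (Ptgdr2). In the leukotriene branch, 5-lipoxygenase (Alox5) works with its activating protein (Alox5ap), and leukotriene C4 synthase (Ltc4s) makes the first cysteinyl leukotriene, a known stimulus of ILC2 cytokine release through the receptor Cysltr1. Prostaglandin E2, through the receptors Ptger2 and Ptger4, and prostacyclin, through Ptgir, raise cyclic AMP and are known to restrain ILC2s.

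These 10 genes, 5 receptors and 5 enzymes chosen by symbol, are described here out of the 27726 genes measured in all 5 libraries. All libraries held lung ILC2s sorted from wild-type (WT) C57BL/6 mice as Lin- ST2+ CD127+ Thy1.2+ CD45+ cells and read on the 10x Genomics 3' platform. There was 1 library of naïve-ILC2s, from mice with neither a tumour nor activation. Tumour-associated (ta-) ILC2s came from mice that carried a TC1 tumour: 2 libraries of ta-non-activated-ILC2s were freshly isolated in weeks 2 and 3, and 2 libraries of ta-activated-ILC2s, from the same weeks, were kept for a week in culture with rhIL-2, IL-33 and TSLP. Each library pooled several mice, so there was no spread between animals to measure, and time in culture and the activating cytokines cannot be told apart. The week also serves as the replicate number.

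Levels were read in cells with at least 200 genes, under 5% mitochondrial counts and at least 1 UMI (unique molecular identifier, which counts 1 captured transcript) of Il1rl1, the gene of ST2, or of Gata3, the transcription factor that ILC2s depend on. This left 902 to 5886 gated cells a library, with medians of 3512 to 16279 UMIs, and levels are UMIs of a gene divided by all UMIs of the gated cells, times 1000000 (CPM). An Il1rl1 UMI was held by 87.8% of gated naïve cells, 49.7% and 44.7% of ta-non-activated cells and 16.0% and 46.5% of ta-activated cells. Week 2 is given first, and the rest passed the gate on Gata3 alone. Libraries shared 1 to 11 cell barcodes pairwise, and no doublets were removed. The week 3 ta-non-activated library stood apart: only 56.3% of its kept cells passed the gate, against 92.1% to 97.8% elsewhere, and 36.1% of its gated cells had a UMI of the T cell receptor genes Cd3d or Cd3e, against 3.67% to 7.85% elsewhere. Its summed level of 12 T cell markers was 5500 CPM, against 289 to 1159 CPM in the other libraries, with 1 marker of that list at 0 there, and its Cd3d level 424 CPM. For that reason levels of the 10 genes, and tests where a gene was tested, are also given in gated cells without Cd3d and Cd3e. So are several shares and wider-list levels. In week 3 ta-non-activated cells this set was thin, with 576 cells. It had 20 UMIs of Alox5ap, 22 of Ptger2, 27 of Alox5 and 30 of Hpgds. Cysltr1 there had 300 UMIs at 60.2 CPM in all gated cells and 276 UMIs at 156 CPM in this set. The Cd3d and Cd3e cells thus held most UMIs of that library's gated cells. The splits within libraries and the nearest genes are given for all gated cells. The week 2 ta-non-activated library stood apart in another way: Il13, a hallmark ILC2 cytokine, was at 8926 CPM there, although the cells are labelled non-activated, against 34.3 CPM in week 3 ta-non-activated cells, 59.1 CPM in naïve cells and 3575 and 4332 CPM in ta-activated cells. Of cells that are rich in eicosanoid enzymes, the mast cell and basophil genes Ms4a2, Prss34 and Mcpt4 were at 0 in all 5 libraries, and Fcer1a had 7 UMIs in naïve cells and 0 elsewhere. Other genes of these lists were present: the mast cell list summed to 359 CPM in naïve cells and the basophil list to 206 and 87.7 CPM in ta-activated cells, and 469 naïve, 32 and 35 ta-non-activated and 283 and 450 ta-activated gated cells had 2 or more such markers. Summed macrophage or monocyte markers reached at most 13.3 CPM, eosinophil markers 10.7 CPM and neutrophil markers 0.602 CPM.

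On the GENCODE M21 annotation of GRCm38 the receptor genes lie at chr19:10937160-10942511 (Ptgdr2, plus strand), chr7:16906490-16910905 (Ptgir, plus strand), chr14:44988195-45003820 (Ptger2, plus strand), chr15:5206661-5244187 (Ptger4, minus strand) and chrX:106574346-106603679 (Cysltr1, minus strand). The enzyme genes lie at chr6:116410077-116461178 (Alox5, minus strand), chr5:149264767-149288153 (Alox5ap, plus strand), chr11:50236461-50238616 (Ltc4s, minus strand), chr6:65117293-65144908 (Hpgds, minus strand) and chr1:150100031-150108227 (Ptgs2, plus strand). RefSeq promoters on GRCm38.p6, from 250 bases before to 50 bases after the start, were matched for 8 of the 10 genes, without Cysltr1 and Alox5ap. Ptgdr2 and Ptgs2 are printed because they had the largest fitted changes in each direction among those 8, and Ptger2 because it and Ptgs2 held the only motif matches, in capitals. Their windows are chr19:10936910-10937209, chr1:150099781-150100080 and chr14:44987861-44988160, all on the plus strand.
Ptgdr2: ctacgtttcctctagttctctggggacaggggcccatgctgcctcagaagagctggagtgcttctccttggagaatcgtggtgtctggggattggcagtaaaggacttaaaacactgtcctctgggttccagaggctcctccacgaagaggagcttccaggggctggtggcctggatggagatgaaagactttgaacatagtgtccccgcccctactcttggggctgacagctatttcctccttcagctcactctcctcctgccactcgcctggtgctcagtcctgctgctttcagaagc
Ptgs2: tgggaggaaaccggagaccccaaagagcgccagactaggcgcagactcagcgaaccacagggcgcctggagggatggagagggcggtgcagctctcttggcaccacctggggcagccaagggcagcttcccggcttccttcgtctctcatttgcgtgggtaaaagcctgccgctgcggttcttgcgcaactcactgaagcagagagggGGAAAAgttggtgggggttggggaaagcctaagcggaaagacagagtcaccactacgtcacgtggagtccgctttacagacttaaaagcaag
Ptger2: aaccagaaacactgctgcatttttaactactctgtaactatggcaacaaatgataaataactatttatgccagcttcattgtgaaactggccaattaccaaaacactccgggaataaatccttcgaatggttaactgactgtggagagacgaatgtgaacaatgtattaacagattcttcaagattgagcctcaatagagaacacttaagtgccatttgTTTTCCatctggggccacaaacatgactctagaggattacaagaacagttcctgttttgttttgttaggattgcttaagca
Both strands were searched for 5 motifs in the 8 windows. The cyclic AMP response element TGACGTCA, held by 1.79% of the 32851 promoters of the same length, matched none of the 8. Only this full motif was searched, not shorter or variant forms of it. The AP-1 motif TGANTCA (7.81% of all promoters), the GATA motif AGATAA (11.2%) and the NF-kappaB consensus (4.51%) matched none either. The NFAT core GGAAAA, held by 23.4% of all promoters, matched Ptgs2 at base 209 of the window and Ptger2 at base 220, there on the opposite strand. No other motif matched, so no matches overlapped.

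**Figure D1:**
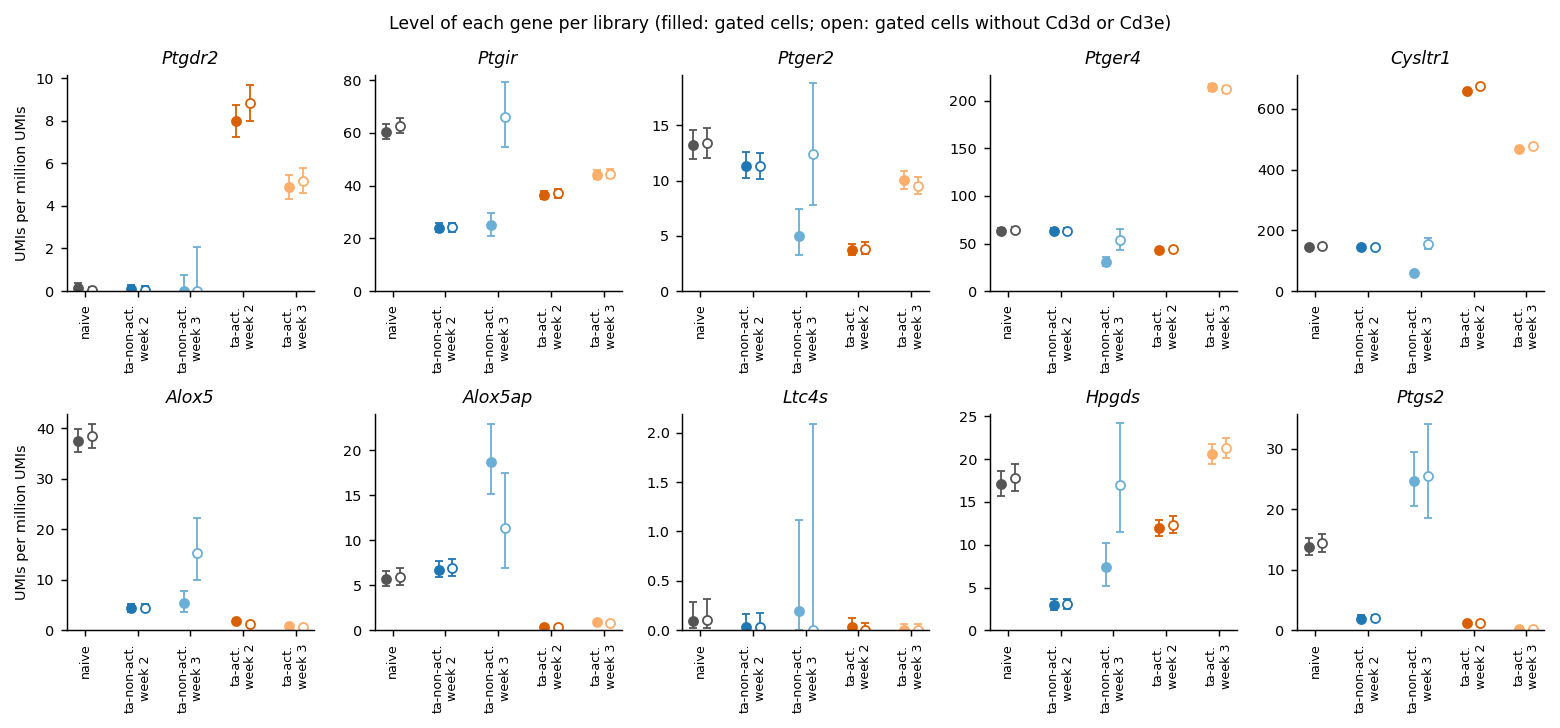
Level of each gene (y axis, CPM, from 0) in the 5 libraries (x axis), in gated cells (filled) and in gated cells without Cd3d and Cd3e (open), with exact Poisson 95% intervals. Cysltr1 and Ptgdr2 are higher in both ta-activated libraries than in the other 3, and Alox5 is highest in the naïve library. The open points of week 3 ta-non-activated cells lie apart from the filled ones for Ptgir, Ptger2, Ptger4, Cysltr1, Alox5 and Hpgds.

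Against ta-non-activated-ILC2s, ta-activated-ILC2s held more Cysltr1 and Ptgdr2 transcripts and fewer Alox5, Alox5ap and Ptgs2 transcripts in both weeks, whether or not Cd3d and Cd3e cells were counted. In edgeR's quasi-likelihood test on 2 libraries against 2, none of the 9 genes tested passed an adjusted p of 0.05, as for all 12569 genes tested (0 called, 0.0%). At an unadjusted p under 0.05 stood 6 of the 9, 3 higher and 3 lower, beside 17.7% of all genes (10.7% higher and 6.98% lower). DESeq2 on the same sums called 1044 genes (8.64% of those with an adjusted p), with Ptgdr2, Cysltr1, Alox5ap and Ptgs2 among them, and edgeR on all genes with a count called 104 (0.577%), with Ptgdr2 and Alox5ap among them. Both ta-activated libraries lay above both ta-non-activated ones for 4 genes (32.7% of all genes tested did so) and below them for 3 (20.3%). With Cd3d and Cd3e cells left out these counts were 2 (33.7% of all genes) and 4 (12.8%). Ltc4s was too low to be tested.

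Cysltr1, the high-affinity receptor for leukotriene D4, was at 146 and 60.2 CPM in week 2 and week 3 ta-non-activated cells and at 658 and 468 CPM in ta-activated cells. The groups did not overlap, and the ta-activated libraries were also the only ones above the 145 CPM of naïve cells by more than 2-fold. Its fitted log2 fold change was 2.36 with a standard error (SE) of 0.61 and an adjusted p of 0.21 in edgeR. With Cd3d and Cd3e cells left out the week 3 ta-non-activated level was 156 CPM, close to the 144 CPM of week 2 and the 150 CPM of naïve cells, and the change was 1.77 (SE 0.43, adjusted p = 0.28, edgeR). Leaving out the week 2 ta-non-activated library gave 3.29 and leaving out that of week 3 gave 1.71.

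Ptgdr2, the prostaglandin D2 receptor that marks human ILC2s, was nearly absent from the freshly isolated cells, with 5 UMIs in the naïve library (0.165 CPM), 3 UMIs in week 2 and 0 UMIs in week 3 ta-non-activated cells. In ta-activated cells it had 444 UMIs (7.97 CPM) in week 2 and 300 UMIs (4.87 CPM) in week 3. All 3 fresh libraries thus lay below both cultured ones. The week 2 log2 ratio was 6.45, with a 95% counting interval of 4.89 to 8.73, and the week 3 level was at least 8.09-fold higher than the floor of 3 counts in that library allows. The fitted log2 fold change of 6.28 (SE 0.86, adjusted p = 0.20, edgeR) depends on the prior count because a group is close to 0, and it was 11.04 without the week 2 ta-non-activated library. Mcpt8 and Cd200r3, genes best known from basophils, were also higher in ta-activated cells: Cd200r3 was at 81.4 and 86.0 CPM against 0.602 to 1.95 CPM elsewhere, and Mcpt8 at 124 CPM in week 2 and 1.07 CPM in week 3 against 0. The sum of 7 basophil markers was 206 and 87.7 CPM in ta-activated cells, with 3 of the 7 at 0, against 1.34 to 8.33 CPM elsewhere. Mcpt8 and Cd200r3 belong to this list and made up nearly all of the sum in week 2, as Cd200r3 alone did in week 3. Ptgdr2 was at 8.65 and 5.38 CPM in ta-activated cells once cells with 2 or more mast cell or basophil markers had been removed, and at 8.81 and 5.16 CPM without Cd3d and Cd3e cells, where the fitted change was 6.62 (SE 0.86, adjusted p = 0.18, edgeR).

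Ptgir, Ptger2 and Ptger4, the receptors that raise cyclic AMP, had no shared direction. Ptgir was at 24.1 and 24.9 CPM in ta-non-activated cells and at 36.3 and 44.1 CPM in ta-activated cells, with 60.5 CPM in naïve cells. Among cells without Cd3d and Cd3e, those of week 3 ta-non-activated were at 66.1 CPM, the groups overlapped, and the fitted log2 fold change moved from 0.66 (SE 0.30, adjusted p = 0.33, edgeR) to -0.30 (SE 0.56, adjusted p = 0.85, edgeR). So the direction of Ptgir depended on which cells of 1 library were counted.

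Ptger4 was at 63.2 and 30.5 CPM in ta-non-activated cells, at 42.9 CPM in week 2 ta-activated cells and at 214 CPM in week 3 ta-activated cells, against 63.0 CPM in naïve cells. The week 3 ta-activated library was the highest of the 5 and that of week 2 lay inside the range of the fresh ones. Without Cd3d and Cd3e cells the value of week 2 ta-activated cells (44.5 CPM, 42.7 to 46.5) was below those of all 3 fresh libraries (53.7 to 64.3 CPM). The 53.7 CPM of week 3 ta-non-activated cells rests on 95 UMIs, and its interval (43.4 to 65.6 CPM) overlaps that of week 2 ta-activated cells. Activated against non-activated, the log2 ratio was -0.56 (counting interval -0.64 to -0.47) in week 2 and 2.81 (2.58 to 3.05) in week 3. Cells without Cd3d and Cd3e gave -0.51 and 1.98. The fitted log2 fold change of 1.34 (SE 0.87, adjusted p = 0.46, edgeR) rested on the week 3 ta-activated library, without which it was -0.25. In cells without Cd3d and Cd3e it was 0.92 (SE 0.76, adjusted p = 0.67, edgeR).

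Ptger2 was at 11.4 and 5.02 CPM in ta-non-activated cells and at 3.75 and 10.0 CPM in ta-activated cells, with 13.2 CPM in naïve cells. Here the week 2 ratio was -1.60 (-1.85 to -1.35) and the week 3 ratio 1.0 (0.42 to 1.64). Without Cd3d and Cd3e cells the week 3 ta-non-activated level was 12.4 CPM and its ratio -0.38 (-1.0 to 0.30), so both weeks then pointed down and only that of week 2 had an interval clear of 0. The fitted log2 fold change was -0.38 (SE 0.69, adjusted p = 0.79, edgeR), and it was 0.51 without the week 2 ta-non-activated library and 0.15 without the week 2 ta-activated one. In cells without Cd3d and Cd3e it was -1.02 (SE 0.54, adjusted p = 0.51, edgeR).

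**Figure D2:**
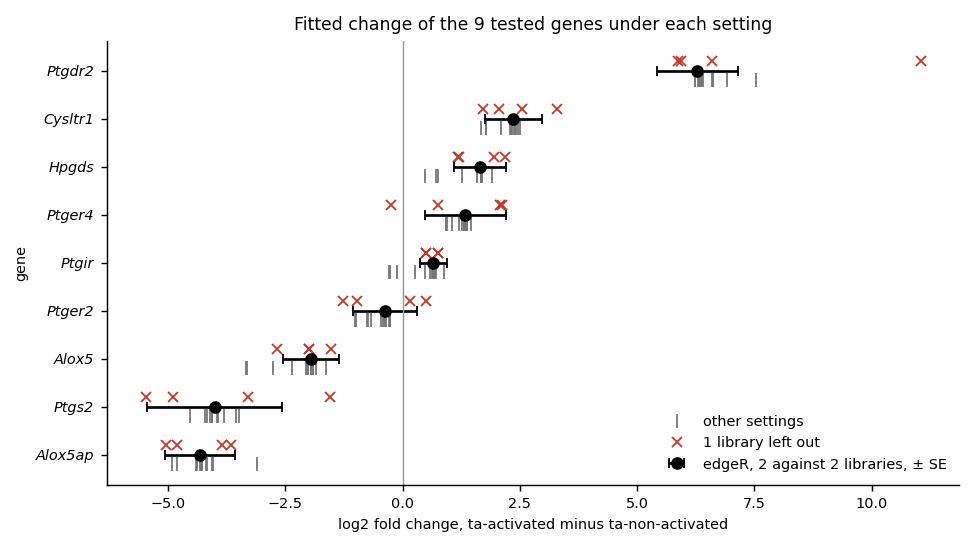
Fitted log2 fold change, ta-activated minus ta-non-activated (x axis), of the 9 tested genes (y axis) with its SE (black), under other settings (grey ticks) and with 1 library left out (red crosses). Ptgdr2, Cysltr1 and Hpgds stay above 0 and Alox5, Ptgs2 and Alox5ap below 0 in each of these settings, while Ptger4, Ptgir and Ptger2 cross it.

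Of the enzymes, Alox5 and Alox5ap were lower in ta-activated cells. Alox5 was at 4.42 and 5.42 CPM in ta-non-activated cells and at 1.78 and 0.812 CPM in ta-activated cells, and the highest level, 37.6 CPM, was that of naïve cells. The groups did not overlap, and the fitted log2 fold change was -1.96 (SE 0.60, adjusted p = 0.24, edgeR). Without Cd3d and Cd3e cells the week 3 ta-non-activated level was 15.3 CPM and the change -3.35 (SE 0.81, adjusted p = 0.28, edgeR).

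Alox5ap was at 6.73 and 18.7 CPM in ta-non-activated cells and at 0.377 and 0.893 CPM in ta-activated cells, with 5.69 CPM in naïve cells. Both ta-activated libraries were below the other 3. The log2 ratio was -4.16 (-4.88 to -3.51) in week 2 and -4.39 (-4.89 to -3.89) in week 3, and the fitted log2 fold change was -4.32 (SE 0.74, adjusted p = 0.20, edgeR). Gate-negative cells of week 3 ta-non-activated held as much Alox5ap (19.9 CPM) as the gated ones, and the level of gated cells without Cd3d and Cd3e was 11.3 CPM, which gave a fitted change of -4.07 (SE 0.59, adjusted p = 0.19, edgeR). Ltc4s had 3, 1, 1, 2 and 0 UMIs in the naïve, the ta-non-activated (week 2, then week 3) and the ta-activated libraries in that order, so it was at or near the floor of 3 counts in all of them and no difference was detectable at this depth. Without Cd3d and Cd3e cells it had 3, 1, 0, 0 and 0 UMIs.

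In the prostanoid branch, Ptgs2 was lower and Hpgds higher in ta-activated cells, each with a limit. Ptgs2 was at 1.95 and 24.7 CPM in ta-non-activated cells and at 1.27 and 0.292 CPM in ta-activated cells, against 13.8 CPM in naïve cells. The 2 fresh tumour libraries were thus farther from each other, with a log2 ratio of 3.66 (3.22 to 4.12) of week 3 over week 2, than week 2 was from culture (-0.61, interval -1.12 to -0.10). The week 2 UMIs of Ptgs2 lay in 22 of 1770 ta-non-activated and 15 of 2712 ta-activated cells. A counting interval does not cover such clumping in few cells. The fitted log2 fold change of -4.01 (SE 1.43, adjusted p = 0.26, edgeR) was -1.54 without the week 3 ta-non-activated library. Gate-negative cells of that library were at 26.3 CPM, and gated cells without Cd3d and Cd3e at 25.4 CPM. With Cd3d and Cd3e cells left out of all libraries the fitted change of Ptgs2 was -4.21 (SE 1.46, adjusted p = 0.37, edgeR). Hpgds was at 2.99 and 7.43 CPM in ta-non-activated cells and at 11.9 and 20.6 CPM in ta-activated cells, next to 17.1 CPM in naïve cells. Its groups did not overlap (log2 fold change 1.65, SE 0.55, adjusted p = 0.25, edgeR). Without Cd3d and Cd3e cells, however, the week 3 ta-non-activated level was 17 CPM and the groups overlapped. The change of Hpgds was then 0.72 (SE 0.85, adjusted p = 0.76, edgeR). With the gate on Il1rl1 alone it was 0.48 (SE 0.94, adjusted p = 0.84, edgeR).

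Set against each other without a test, by the same rule of 2-fold and 20 CPM as for naïve cells further on, the libraries of week 2 differed in Cysltr1 alone of 3 genes at that level, higher in ta-activated cells (15.9% of all genes were higher and 12.5% lower, or 16.3% and 12.6% without Cd3d and Cd3e cells). In week 3, of 5 genes, Cysltr1, Hpgds and Ptger4 were higher (18.9% of all genes) and Ptgs2 lower (15.6%). Counted without Cd3d and Cd3e, Cysltr1 and Ptger4 were higher (23.2%) and Ptgs2 lower (10.7%). Between the ta-non-activated libraries, week 3 had more Ptgs2 (18.3% of all genes were higher) and less Cysltr1 and Ptger4 (12.5% were lower). Those last 2 differences were absent without Cd3d and Cd3e cells, where Ptgs2 and Ptgir were the ones higher in week 3 (18.5%). Between the ta-activated libraries Ptger4 was past 2-fold, with a log2 ratio of 2.32 (2.26 to 2.38) of week 3 over week 2, where 3.29% of all genes were higher (3.33% without Cd3d and Cd3e cells) and 2.33% lower.

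The naïve library was set against each ta-non-activated library without a test, since there was 1 naïve library, and a gene was counted when it differed by 2-fold or more and reached 20 CPM in either library. Of the 4 genes that reached this level in the week 2 comparison, Alox5 and Ptgir were past 2-fold, both higher in naïve cells (35.5% of 6566 genes were, and 35.3% without Cd3d and Cd3e cells), and 0 were lower (24.9% of all genes). Against week 3, Cysltr1, Alox5, Ptgir and Ptger4 of 5 such genes were higher in naïve cells (29.6% of all genes) and 0 lower (19.3%). In cells without Cd3d and Cd3e only Alox5 was past 2-fold in the week 3 comparison (28.2% of all genes were higher and 3.75% lower). In those cells the log2 ratio of Alox5 was 3.11 (2.85 to 3.37) against week 2 and 1.33 (0.78 to 1.94) against week 3. Ptgir gave 1.37 (1.25 to 1.5) against week 2 and -0.07 (-0.34 to 0.21) against week 3, and Cysltr1 gave 0.06 (-0.0014 to 0.12) and -0.06 (-0.23 to 0.12), so no difference of Cysltr1 from naïve cells was seen in either week. Below 20 CPM, Hpgds gave 2.55 against week 2 and 0.07 against week 3, and Ptgs2 gave 2.83 and -0.82. For Ptgir, Cysltr1, Hpgds, Ptger2 and Ptger4 the naïve library and the week 3 cells without Cd3d and Cd3e thus had ratios whose intervals included 0. The sum of 10 mast cell markers was 359 CPM in naïve cells, with 4 of the 10 at 0, against 14.9 to 162 CPM elsewhere. In gated cells without those that had 2 or more mast cell or basophil markers the Alox5 ratio was 3.08 against week 2 and 2.81 against week 3. This set still held the Cd3d and Cd3e cells, so its week 3 ratio is not to be set against the 1.33 of cells without them. Epithelial cell markers summed to 268 CPM in naïve cells against 2.01 to 57.8 CPM elsewhere, and endothelial cell markers to 77.6 against 11.3 to 29.7 CPM. Their part in the naïve differences was not tested.

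The naïve matrix was made with another Cell Ranger version, and its levels moved with intron length. Genes were put in 4 equal groups by intron bases. In group 1, with the shortest introns, the median log2 ratio of naïve over week 2 ta-non-activated cells was -0.91, and in group 4, over 56609 intron bases, it was 2.13, with 77.1% of the genes past 2-fold. Alox5 has 46996 intron bases and lies in group 3, whose median was 0.45 against week 2 and 0.40 against week 3 (0.54 in cells without Cd3d and Cd3e). In that group 35.9% of genes were past 2-fold higher in naïve cells against week 2 and 28.9% against week 3. Against week 2 it ran from 22083 to 56609 intron bases, so Alox5 lies nearer to its upper end and to group 4. Ptgir, with 1082 intron bases, lies in group 1, where 11.8% of genes were past 2-fold higher in the week 2 comparison. Ptgs2 (3617 intron bases) lies there too. The part of the matrix version in these ratios was not tested.

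**Figure D3:**
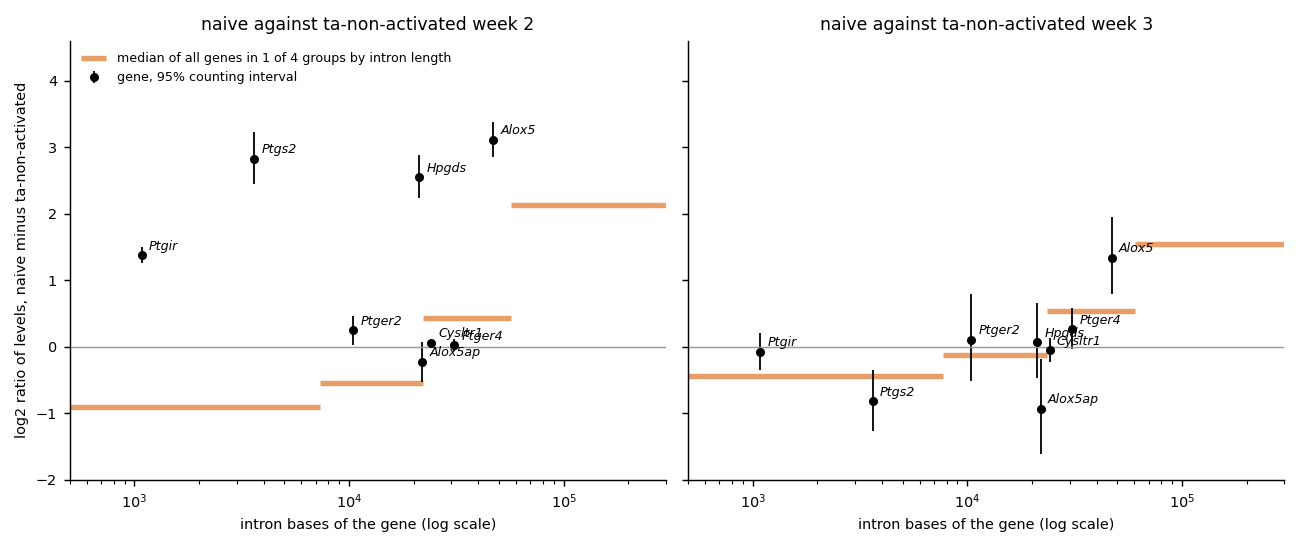
Log2 ratio of the level in naïve over ta-non-activated cells (y axis) against the intron bases of the gene (x axis, log scale), in gated cells without Cd3d and Cd3e, for week 2 (left) and week 3 (right), with 95% counting intervals; orange lines are the medians of all genes in 4 groups by intron length. Alox5 lies above its group's line in both panels, and Hpgds, Ptgs2 and Ptgir lie far above theirs only against week 2.

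Shares of cells with a UMI were compared after each cell had been thinned to 2000 UMIs, because depth differed between libraries. This left out 4 to 183 shallower gated cells a library. Cysltr1 was seen in 21.9% of naïve cells (exact Clopper-Pearson 95% interval 20.9% to 23.0%), in 25.7% and 16.7% of ta-non-activated cells and in 66.6% and 57.9% of ta-activated cells. The week 3 ta-non-activated share was 25.6% (21.9% to 29.7%) without Cd3d and Cd3e cells, level with week 2. Without thinning the shares were 40.7%, 71.4%, 23.7%, 94.7% and 92.4%. Gate-negative cells with UMIs of 2 or more CD3 genes served as a comparison, and whether they express these genes was not tested. Among them Cysltr1 was seen in 4.39% of 228 naïve cells and 0.893% of 560 week 3 ta-non-activated cells. It was seen in 33.3% of the 39 such week 2 ta-activated cells (median depth 8630 UMIs against 14335 UMIs in gated cells). Whether those 39 are ILC2s that the gate missed was not tested. Per thinned cell, 39.9% of week 2 and 27.7% of week 3 ta-activated cells had 2 or more Cysltr1 UMIs, with at most 11 in a cell, against 4.07% to 6.74% of cells in the other 3 libraries.

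Ptger4 was seen in 10.7% of naïve cells, in 12.2% and 8.13% of ta-non-activated cells and in 9.47% and 31.4% of ta-activated cells. Only the week 3 ta-activated share, with an interval of 29.9% to 33.0%, stood clear of the others, and gate-negative CD3 cells were at 4.82%, 4.11% and 7.69% in the naïve, week 3 ta-non-activated and week 2 ta-activated libraries. Alox5 was seen in 6.49% of naïve cells (5.86% to 7.16%), in 1.02% and 1.91% of ta-non-activated cells and in 0.298% and 0.0272% of ta-activated cells. The 1.91% of week 3 was 3.13% (1.80% to 5.04%) without Cd3d and Cd3e cells. It was seen in 0 of 228 naïve gate-negative CD3 cells, where the floor of 3 counts allows up to 1.32%. Ptgdr2 was seen in 61 of 2681 (2.28%) and 37 of 3676 (1.01%) ta-activated cells, in 2 of 5703 naïve cells, and in 0 of 1766 and 0 of 836 ta-non-activated cells, where the floor of 3 counts allows up to 0.170% and 0.359% (upper Clopper-Pearson limits 0.209% and 0.440%). Without thinning the ta-activated shares were 12.2% and 6.29%. A single one of the 39 week 2 ta-activated gate-negative CD3 cells had a Ptgdr2 UMI (2.56%, interval 0.0649% to 13.5%). The thinned share of gated cells in that week is therefore not told from that of these few cells. Without thinning, 3 of these 39 cells had a Ptgdr2 UMI (7.69%, interval 1.62% to 20.9%), so the 12.2% of gated cells is not told from their share either. By level the gated cells had 7.97 CPM and all 183 gate-negative cells, CD3 or not, 1.80 CPM (log2 ratio 2.15, 0.59 to 4.43). The gate-negative level rests on few UMIs.

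Ptgs2 was seen in 1.28% of naïve and 3.23% of week 3 ta-non-activated cells and in at most 0.170% of the others, and its UMIs lay in few cells: 25 naïve cells had 2 or more and 1 cell had 12. In the gate-negative CD3 cells of week 3 ta-non-activated the share was 5.54% for Ptgs2 and 3.39% for Alox5ap, as high as or higher than the 3.23% of gated cells for either gene. These 2 shares are therefore not taken as above those of the gate-negative CD3 cells, and whether the gate-negative cells express the genes was not tested. In gated cells without Cd3d and Cd3e they were 2.35% for Ptgs2 and 1.96% for Alox5ap. With the gate on Il1rl1 alone they were 1.64% (0.604% to 3.53%) for Ptgs2 and 1.91% for Alox5ap. Ptgs2 was higher in week 3 ta-non-activated cells with than without Il13 or Il5 UMIs (54.1 against 22.7 CPM). In Il1rl1+ against Il1rl1- Gata3+ cells, however, Ptgs2 was higher in 0 of 5 libraries and lower in 1. Ptgir was seen in 11.4%, 5.15%, 7.54% (11.7% without Cd3d and Cd3e cells), 7.68% and 8.54% of cells and Hpgds in 3.12%, 0.510%, 2.39%, 2.98% and 4.43%, in the order naïve, ta-non-activated (week 2, week 3) and ta-activated (week 2, week 3). Counted together, a thinned cell showed a mean of 0.581 of the 10 genes in the naïve library, 0.484 and 0.445 in ta-non-activated cells and 0.899 and 1.05 in ta-activated cells, and at most 4 in a cell. These means include Cysltr1, seen in 21.9%, 25.7%, 16.7%, 66.6% and 57.9% of cells in the same order. They also include Ptger4, seen in 31.4% of week 3 ta-activated cells, so they do not show a rise of the 10 genes as a set.

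**Figure D4:**
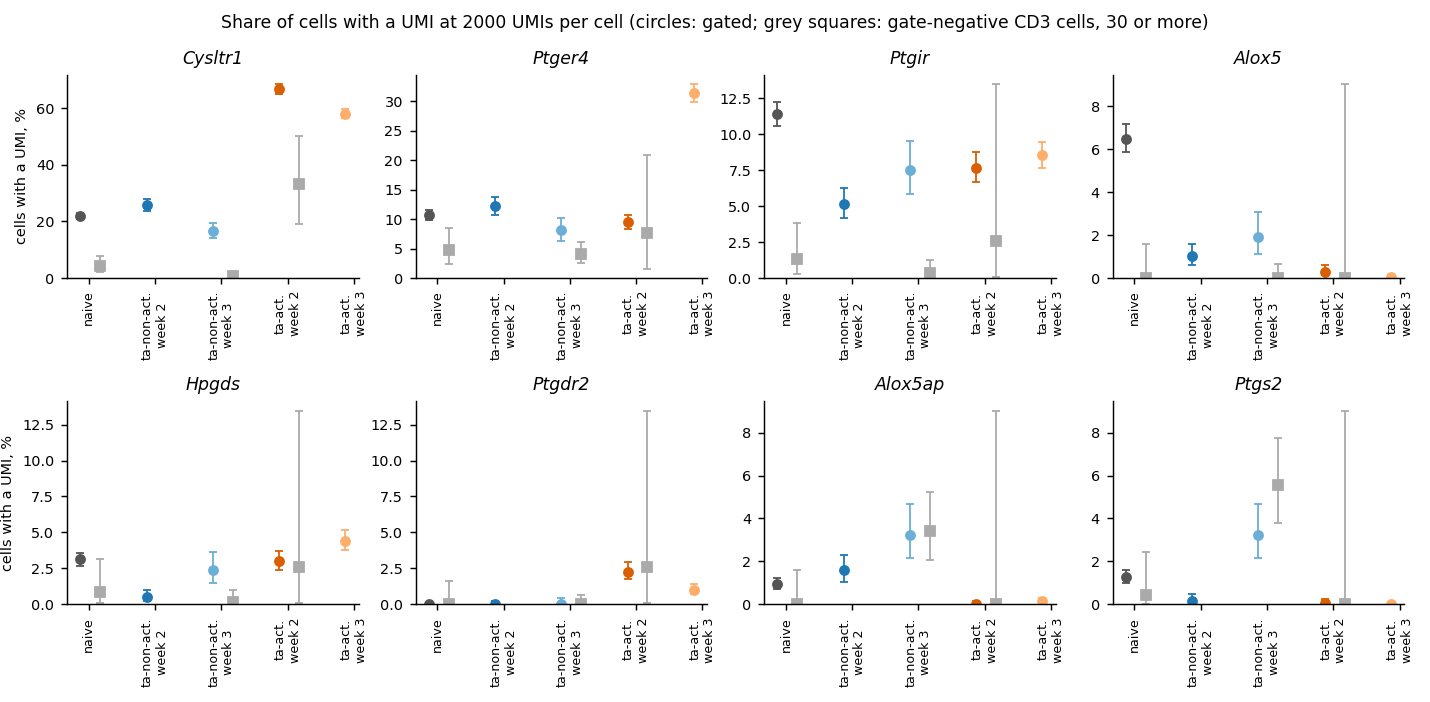
Share of cells with a UMI (y axis, %, from 0) after thinning to 2000 UMIs for 8 genes in the 5 libraries (x axis), in gated cells (circles) and in gate-negative CD3 cells where there were 30 or more (grey squares), with exact 95% intervals. Cysltr1 exceeds 50% in both ta-activated libraries, Ptger4 stands out in week 3 ta-activated cells, and the grey squares reach the circles for Alox5ap and Ptgs2 in week 3 ta-non-activated cells.

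Within libraries, Ptgir was the gene with the steadiest split. Cells of at least 2000 UMIs were split by their thinned counts and compared on all their UMIs. Cells with UMIs of 2 or more of 12 cell cycle genes had less Ptgir than the rest in 5 of 5 libraries. For example, it was at 18.0 against 25.1 CPM in week 2 ta-non-activated and 33.4 against 48.0 CPM in week 3 ta-activated cells. The log2 ratio farthest from 0, -4.43, was that of week 3 ta-non-activated cells, where 36.1% of gated cells had a UMI of Cd3d or Cd3e. In the naïve library only 39 cells were cycling, with 19 Ptgir UMIs. The log2 ratio there was -0.67, and its interval (-1.40 to -0.018) barely cleared no change. Hpgds was lower in cycling cells in 3 of 5 libraries and its interval included no change in the other 2. Cysltr1 was lower in cycling cells in 4 libraries and higher in week 2 ta-non-activated cells (183 against 139 CPM). Cycling cells were deeper in each library, with medians of 12668 to 26246 UMIs against 3418 to 15431 UMIs, and levels here are relative to all UMIs of the cells. For this split and those below, the share of all genes that go the same way was not counted. The directions are therefore not read as particular to these genes.

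Cells with a UMI of Il13 or Il5, the ILC2 cytokines, had less Hpgds than cells without in 3 of 5 libraries: 2.67 against 8.80 CPM in week 2 ta-non-activated cells, 11.2 against 17.1 CPM and 19.3 against 38.5 CPM in ta-activated cells. All gated week 2 ta-non-activated cells held 98 Hpgds UMIs, so the 8.80 CPM there rests on few UMIs. In naïve cells the ratio was -0.22 (-0.56 to 0.10) and in week 3 ta-non-activated cells 1.02 (-0.70 to 2.40). Ptgir was higher with Il13 or Il5 in 3 of 5 libraries and Cysltr1 in 3, but Cysltr1 was lower in week 2 ta-non-activated cells (144 against 175 CPM). Ptgs2 was higher in such cells in the naïve library, and in 3 of 5 libraries in all (naïve log2 ratio 0.90, 0.59 to 1.20). Its UMIs lay in few cells, 143 of 5886 gated cells in the naïve library. The counting intervals behind these directions do not cover such clumping.

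Split by ST2, Ptgdr2 was lower in Il1rl1+ than in Il1rl1- Gata3+ ta-activated cells. It was at 0.508 against 10.2 CPM in week 2 and 1.18 against 6.11 CPM in week 3. The Il1rl1+ cells numbered 130 in week 2 and 700 in week 3, so the week 2 level rests on few cells and few Ptgdr2 UMIs. Read the other way, the 61 and 37 ta-activated cells with a Ptgdr2 UMI held 4.01 and 47.0 CPM of Il1rl1, against 48.9 and 122 CPM in the rest, and less Il13 in both weeks (log2 ratios -1.06 and -0.89), with Gata3 higher by 0.28 and 0.26 on the log2 scale. The 4.01 CPM of the 61 cells likewise rests on few UMIs. Alox5 was higher in Il1rl1+ cells of the naïve library (42.7 against 27.6 CPM) and in 3 of 5 libraries. Cysltr1 was higher in Il1rl1+ cells of the 3 fresh libraries and slightly lower in both ta-activated ones (log2 ratios -0.12 and -0.11). In week 3 ta-non-activated cells these splits also part the cells with CD3 genes from the rest, and the part of that in the ratios was not tested.

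**Figure D5:**
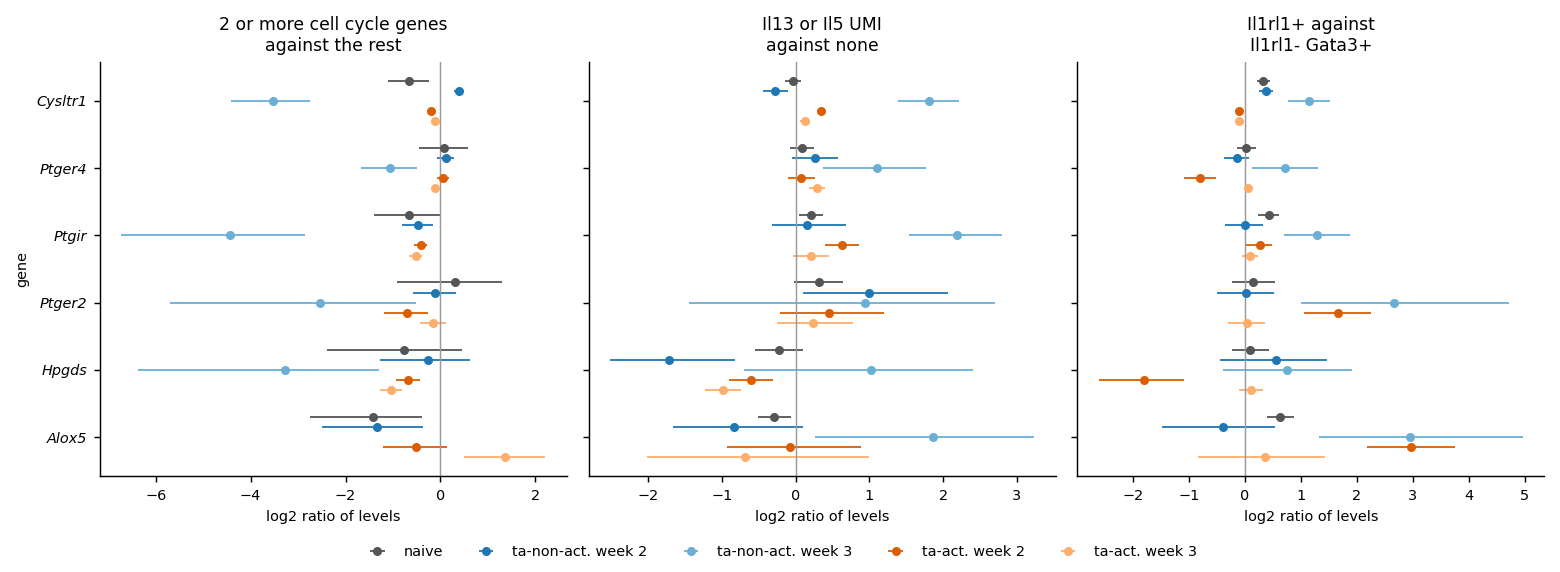
Log2 ratio of the level of 6 genes (y axis) between 2 sets of gated cells of the same library (x axis), for cycling against other cells (left), cells with against without Il13 or Il5 (middle) and Il1rl1+ against Il1rl1- Gata3+ cells (right), with 95% counting intervals; colours are the libraries. Ptgir lies left of 0 in the first panel in all 5 libraries, and the week 3 ta-non-activated ratio is the farthest from 0 for Ptgir and Cysltr1 in each panel.

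Beyond these 10, 86 further genes of eicosanoid synthesis, transport, inactivation and signalling were measured in 7 lists and 68 were tested. By edgeR 0 passed an adjusted p of 0.05 in either direction, and 7 higher and 4 lower had an unadjusted p under 0.05, shares close to the 10.7% and 6.98% of all genes tested. Their median log2 fold change was 0.11, against 0.04 over all genes tested. From each list the 2 tested genes with the largest fitted change are named. Among leukotriene receptors, Cysltr2, the second cysteinyl leukotriene receptor, was at 6.27 and 3.41 CPM in ta-non-activated and 17.5 and 47.1 CPM in ta-activated cells, with 52.1 CPM in naïve cells. Its fitted log2 fold change was 2.60 (SE 0.66, adjusted p = 0.21, edgeR), in the same direction as Cysltr1. Ltb4r1, the high-affinity leukotriene B4 receptor, was at 235 and 74.7 CPM against 313 and 266 CPM, a change of 0.80 (SE 0.66). Without Cd3d and Cd3e cells the week 3 ta-non-activated level was 195 CPM for Ltb4r1 and 7.35 CPM for Cysltr2. The prostanoid receptors Tbxa2r (-3.49, SE 1.89) and Ptger3 (2.94, SE 1.67) were both low, at most 22.3 CPM and 4.53 CPM.

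Of the enzymes in these lists, Alox8, a lipoxygenase, was at 0.305 and 0.201 CPM in ta-non-activated and 14.1 and 6.74 CPM in ta-activated cells (5.13, SE 0.69, adjusted p = 0.20, edgeR). Ptges, the inducible prostaglandin E synthase, was at 4.51 and 1.20 CPM against 11.3 and 10.6 CPM (1.75, SE 0.70), and Ptges2 had a change of -1.16 (SE 0.39). Mgst2, which can also make leukotriene C4, was at 1.95 and 46.4 CPM against 4.26 and 3.69 CPM (-2.55, SE 1.35). Lpcat2, which returns fatty acids to phospholipids, was at 16.4 and 110 CPM against 2.48 and 2.58 CPM (-4.63, SE 0.98). Its naïve level was 348 CPM, and with 60553 intron bases it lies in group 4 by intron length. In that group 77.1% of genes were past 2-fold higher in naïve than in week 2 ta-non-activated cells. Pla2g4a, the cytosolic phospholipase that frees arachidonic acid, was at most 6.02 CPM (-2.45, SE 1.09). Among transport and inactivation genes, Slco4a1 had a change of 3.91 (SE 1.37), with 10.3 CPM in week 2 and 0.975 CPM in week 3 ta-activated cells, and Hpgd, which inactivates prostaglandins, one of -1.32 (SE 1.92). In the signalling list, Rgs2, a brake on G protein signals, was at 1.34 and 493 CPM in ta-non-activated and 8.84 and 9.13 CPM in ta-activated cells, with 1269 CPM in naïve cells (-4.74, SE 2.31), and Rapgef3, a cyclic AMP sensor, had 55.8 CPM in week 3 ta-non-activated cells and at most 3.70 CPM elsewhere (-3.17, SE 1.99). For Tbxa2r, Mgst2, Rgs2 and Rapgef3, as for Ptgs2, the week 2 ta-non-activated level was closer to both ta-activated levels than to that of week 3 ta-non-activated cells. Without Cd3d and Cd3e cells that week 3 level was 2.26 CPM for Tbxa2r, 3.39 CPM for Rapgef3 and 18.7 CPM for Mgst2, each lower than with them, but 1026 CPM for Rgs2 and 295 CPM for Lpcat2, each higher. It was also lower for Pla2g4a (1.13 against 6.02 CPM) and Ptges2 (5.65 against 12.25 CPM). For Ptges (3.39 against 1.20 CPM) and Hpgd (7.35 against 2.61 CPM) it was higher, and levels this low rest on few UMIs.

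The genes most alike in pattern were sought among 7336 genes over 5 libraries, by the distance between centred log2 levels, for the 6 members at 20 CPM or more in some library. For Cysltr1 they were Apobr, Stc2 and H2-T23 (distances 0.37, 0.37 and 0.52), and for Ptgir Lmbr1l, Efr3a and Oxa1l (0.10, 0.15 and 0.15). Ptger4 was near to Zmiz2 and Dus2 (0.56 and 0.73), both highest in week 3 ta-activated cells. Alox5 was nearest to Evi5, Hs3st3b1 and St3gal3, Hpgds to Gprin3, Ly6e and Mast3, and Ptgs2 to Gfi1, Atp1b1 and Emid1, at distances of 0.25 to 0.66. With 5 libraries that differ in depth and matrix version, such distances are a description only.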

How the data were processed

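Single-cell RNA was measured in 5 libraries. Per the file headers and the submitters' processing notes, the matrices the authors deposited hold unnormalized UMI counts for genes by barcodes, made with Cell Ranger (6.0.0 for the naïve matrix, 3.0.2 for the others); the annotation used for counting is not given in the sources used here. Cells were kept and gated as described above, with no doublet removal. Positions came from GENCODE M21 on GRCm38, which held 27639 of 27726 gene identifiers (99.7%).

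Gated counts were summed per library. Ta-activated and ta-non-activated libraries (2 against 2) were compared with edgeR 4.0.16 in R 4.3.3 (filterByExpr, TMM, quasi-likelihood F test, Benjamini-Hochberg adjustment, threshold 0.05). The fit was also run on simulated counts with known changes, as a check of the code. That run does not show the power of the test at the spread of these libraries. The SE is the log2 fold change over the square root of F. P-values measure only the spread between libraries. Levels have exact Poisson, shares Clopper-Pearson and ratios of 2 libraries exact conditional binomial 95% intervals, all for counting error only. Python 3.11.15, numpy 2.4.6, scipy 1.17.1, pandas 2.3.3 and matplotlib 3.10.9 were used.

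Alternatives were DESeq2 1.42.0, library sizes without TMM, no filter on low counts, a fit of all 5 libraries, the week as a replicate block, other gates and cell filters, and each library left out. The 10 genes and all lists were chosen with earlier results of these data known. The genes named are the 10 members, the 2 tested genes with the largest fitted change in each wider list, and the 3 genes most alike to each member at 20 CPM or more, of which 1 is not reported here; other genes are markers.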

Additional observations from a re-analysis of the deposited data

Results flagged for a closer look

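In 2 genes the ta-activated library lay on opposite sides of the ta-non-activated one in the 2 weeks, with each counting interval clear of no change; with 1 library a week the difference between weeks was not tested. For Ptger4 the log2 ratio was -0.56 in week 2 and 2.81 in week 3, and in gated cells without Cd3d and Cd3e it was -0.51 and 1.98. For Ptger2 it was -1.60 in week 2 and 1.0 in week 3, which did not hold without Cd3d and Cd3e cells. In those cells Ptgir instead was split, at 0.61 in week 2 and -0.57 in week 3. The share of cells with Cd3d or Cd3e was 36.1% in the week 3 ta-non-activated library, and the part of other cell types in these differences was not tested.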

How the results depend on the processing

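The count of 0 genes called between ta-activated and ta-non-activated cells became 1044 with DESeq2, 104 with all genes with at least 1 count (of which Ptgdr2 and Alox5ap were members), and between 0 and 1175 with 1 library left out: 1175 without ta-non-activated week 2, 500 without ta-non-activated week 3, 0 without ta-activated week 2 and 3 without ta-activated week 3. In these fits a lone library is assumed to vary like the others. Of the members, Cysltr1, Alox5ap and Ptgdr2 were called without ta-non-activated week 2 and Ptgdr2 without ta-non-activated week 3. The direction of Ptgir reversed with the gate on Il1rl1 alone (-0.11), without Cd3d and Cd3e cells (-0.30) and without them in a fit of all 5 libraries (-0.27, chosen after seeing the data). Leaving out 1 library gave -1.26 to 0.51 for Ptger2 (0.15 and 0.51 reversed) and -0.25 to 2.12 for Ptger4 (-0.25 reversed). Of the values of single members in all other fits, 137 kept their direction and side of the threshold, and 10 passed it. With the replicate block for the week 0 genes were called, and no member was; with 2 pairs, the numbers mark only a week, and no further check of pairing was made.

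Members past 2-fold between naïve and week 3 ta-non-activated cells numbered 4, but 1 with the gate on Il1rl1 alone, 1 without Cd3d and Cd3e cells and 1 with the gate after thinning, where Ptgir (-0.0073 with the first, -0.074 with the second) and Cysltr1 (-0.058 with the second) reversed. Between ta-activated and ta-non-activated week 2 they numbered 1, and 2 with the gate on Il1rl1 alone. The causes were not tested. Depth limits Ltc4s in all libraries and Ptgdr2 in the fresh ones.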
